A study of Mus musculus with 5 samples.

Results

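Vegfa, Kdr, Flt1, Nrp1, Angpt1, Angpt2, Tek, Apln and Aplnr form 3 ligand and receptor systems by which tissue cells direct the growth and stability of blood vessels, and they are described here in mouse skin cells taken 4 days after wounding. The 9 genes were chosen by name and matched to the symbol column of the gene tables, which hold 27998 genes, and all 9 were found. RNA was counted with unique molecular identifiers (UMIs, one count for each captured RNA molecule) in single cells from C57BL/6 mouse skin after a sort for live cells. Wounded skin (3 libraries) came from mice given a 6-mm punch wound at 7 weeks of age, and a 10-mm punch that took in the wound region was collected 4 days later. Un-wounded skin (2 libraries) was normal skin of the same strain. The labels give neither its age nor the sex, pooling or number of animals behind any library, so p-values measure the spread between libraries, which may be technical.

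Wounded libraries 1, 2 and 3 held 7057, 4390 and 3986 kept cells, and un-wounded libraries 1 and 2 held 5033 and 5131. The total UMI counts were 59621412, 33537809 and 41654423 in wounded and 33642571 and 41041406 in un-wounded libraries, with median depths of 6082.5 to 7935.5 UMIs per kept cell in wounded and 6019 to 6828 in un-wounded libraries. Clustering without the 9 genes gave 30 clusters, of which 24 could be named by marker genes as 14 cell classes. Each class name stands for cells that are like that type by those markers. Between 26 and 63 cell barcodes were shared by each pair of libraries, against 26.5 to 56.7 given by chance. Expression is given as CPM, the UMIs of a gene scaled to a common total of UMIs over the cells summed, and intervals on single counts cover counting error only.

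Vegfa encodes vascular endothelial growth factor A, a secreted factor made by epithelial, stromal and myeloid cells and induced by low oxygen through hypoxia-inducible factors. It binds Kdr (VEGFR2), the main signalling receptor of endothelial cells, and Flt1 (VEGFR1), which binds the ligand tightly, signals weakly and is also made as a soluble trap. Nrp1 is a co-receptor that binds VEGF and class 3 semaphorins. Angpt1 activates the endothelial receptor Tek (Tie2) and steadies vessels, while Angpt2, stored by endothelial cells, blocks or partly activates the same receptor and loosens them. Apln is a peptide made by sprouting tip cells, and Aplnr is its G protein-coupled receptor on endothelial cells, chiefly of veins. Skin wounds fill with new capillaries during granulation tissue formation.

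In GRCm38 coordinates, Vegfa lies at chr17:46016993-46032369 on the minus strand, Kdr at chr5:75932827-75978458 on the minus strand and Flt1 at chr5:147561604-147726011 on the minus strand. Nrp1 lies at chr8:128358604-128503363 on the plus strand, Angpt1 at chr15:42424723-42676977 on the minus strand and Angpt2 at chr8:18690263-18741562 on the minus strand. Tek lies at chr4:94739289-94874976 on the plus strand, Apln at chrX:48025146-48034853 on the minus strand and Aplnr at chr2:85136225-85139923 on the plus strand. All 9 are protein-coding genes. Angpt2 lies opposite Mcph1 and Angpt1 opposite Gm17473, and the strand setting of the counting is not given in the sources used here, so reads of these pairs may not be told apart. Tags at the 3′ end do not separate soluble from membrane Flt1, nor the splice forms of Vegfa.

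The promoters of the 2 genes that edgeR called changed in a cell class, Flt1 and Tek, and of the other VEGF receptor, Kdr, are shown as the 250 bases just upstream of the RefSeq gene start (GRCm38.p6), on the gene's own strand. The windows are chr5:147726012-147726261 for Flt1 and chr5:75978456-75978705 for Kdr, both on the minus strand, and chr4:94739039-94739288 for Tek, on the plus strand. Capitals mark every match to GGAAG or its reverse complement CTTCC, a form of the core bound by ETS factors. They also mark ACGTG or its reverse complement CACGT, a form of the core bound by hypoxia-inducible factors. Other forms of these cores were not marked, so a window without capitals may still hold them. These letters are a description of the windows and not a measured binding site.
Flt1: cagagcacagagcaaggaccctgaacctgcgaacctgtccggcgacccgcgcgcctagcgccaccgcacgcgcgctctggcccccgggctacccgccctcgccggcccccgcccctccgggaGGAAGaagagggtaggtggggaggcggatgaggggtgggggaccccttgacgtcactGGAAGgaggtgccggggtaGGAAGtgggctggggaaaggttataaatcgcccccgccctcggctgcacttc
Kdr: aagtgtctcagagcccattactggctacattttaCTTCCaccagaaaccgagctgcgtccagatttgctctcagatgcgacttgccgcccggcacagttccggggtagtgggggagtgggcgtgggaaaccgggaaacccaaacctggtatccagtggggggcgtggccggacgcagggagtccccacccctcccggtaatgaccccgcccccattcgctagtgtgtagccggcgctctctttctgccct
Tek: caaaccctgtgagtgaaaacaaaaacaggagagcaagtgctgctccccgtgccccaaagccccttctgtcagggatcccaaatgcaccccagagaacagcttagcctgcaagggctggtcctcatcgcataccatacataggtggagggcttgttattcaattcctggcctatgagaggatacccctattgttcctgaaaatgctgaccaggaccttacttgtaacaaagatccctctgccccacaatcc
The Flt1 window held 3 GGAAG matches, the Kdr window 1 and the Tek window 0, and none of the windows held ACGTG. Among 32851 mouse promoter windows of the same length, 64.1% held GGAAG and 16.6% held ACGTG. RefSeq windows were found for Apln, Flt1, Kdr, Nrp1, Tek and Vegfa.

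Summed over all kept cells, 8 of the 9 genes were higher in every wounded library than in either un-wounded library. Among all 15498 genes tested, 23.1% were higher in wounded libraries without overlap. The largest fitted differences were those of Aplnr, Angpt2, Tek and Flt1. Aplnr had 8.07, 1.43 and 8.35 CPM in wounded libraries, against 0.0951 and 0.834 CPM in un-wounded libraries, a log2 fold change of 3.70 ± 1.12 (SE; adjusted p = 0.121, edgeR). The un-wounded values rest on 3 and 32 UMIs. Angpt2 had 18.3, 4.18 and 7.75 CPM in wounded libraries, against 0.982 and 1.04 CPM in un-wounded libraries (log2 fold change 3.31 ± 0.68, adjusted p = 0.0766, edgeR). For both genes the wounded libraries differed among themselves several-fold, with wounded library 2 lowest.

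Tek had 5.17, 7.68 and 4.58 CPM in wounded libraries, against 0.158 and 1.41 CPM in un-wounded libraries (log2 fold change 2.93 ± 0.84, adjusted p = 0.113, edgeR). Flt1 had 16.1, 3.28 and 13.0 CPM in wounded libraries, against 0.729 and 3.13 CPM in un-wounded libraries (2.52 ± 0.87, adjusted p = 0.147). Wounded library 2 stood only just above un-wounded library 2 for Flt1, so the absence of overlap there rests on a narrow gap. Kdr had 4.02, 6.50 and 6.72 CPM in wounded libraries, against 0.666 and 2.68 CPM in un-wounded libraries (1.84 ± 0.64, adjusted p = 0.148). Nrp1 had 44.1, 43.8 and 48.0 CPM in wounded libraries, against 4.63 and 32.6 CPM in un-wounded libraries (1.36 ± 0.73, adjusted p = 0.289). The wounded libraries were close to each other for Nrp1, and the un-wounded ones were far apart.

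Angpt1 had 2.97, 3.92 and 2.29 CPM in wounded libraries, against 0.824 and 1.54 CPM in un-wounded libraries (log2 fold change 1.41 ± 0.45, adjusted p = 0.130, edgeR). Apln had 1.65, 1.18 and 2.47 CPM in wounded libraries, against 0.380 and 1.04 CPM in un-wounded libraries (1.36 ± 0.60, adjusted p = 0.216). Vegfa had 11.96, 44.6 and 21.3 CPM in wounded libraries, against 2.66 and 14.6 CPM in un-wounded libraries (1.67 ± 0.86, adjusted p = 0.270), and was the only one of the 9 genes whose groups overlapped. No gene of the 9 passed the threshold (adjusted p under 0.05 over all genes) in whole libraries by edgeR, 6 had an unadjusted p under 0.05, and DESeq2 called 6 (Kdr, Flt1, Angpt1, Angpt2, Tek and Aplnr). Over all genes tested, 0.626% were called by edgeR, 25.9% had an unadjusted p under 0.05 and 17.2% were called by DESeq2. Un-wounded library 1 was the lowest of the 5 libraries for all 9 genes. In such whole-library sums, more cells of a type and more RNA per cell cannot be told apart.

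**Figure D1:**
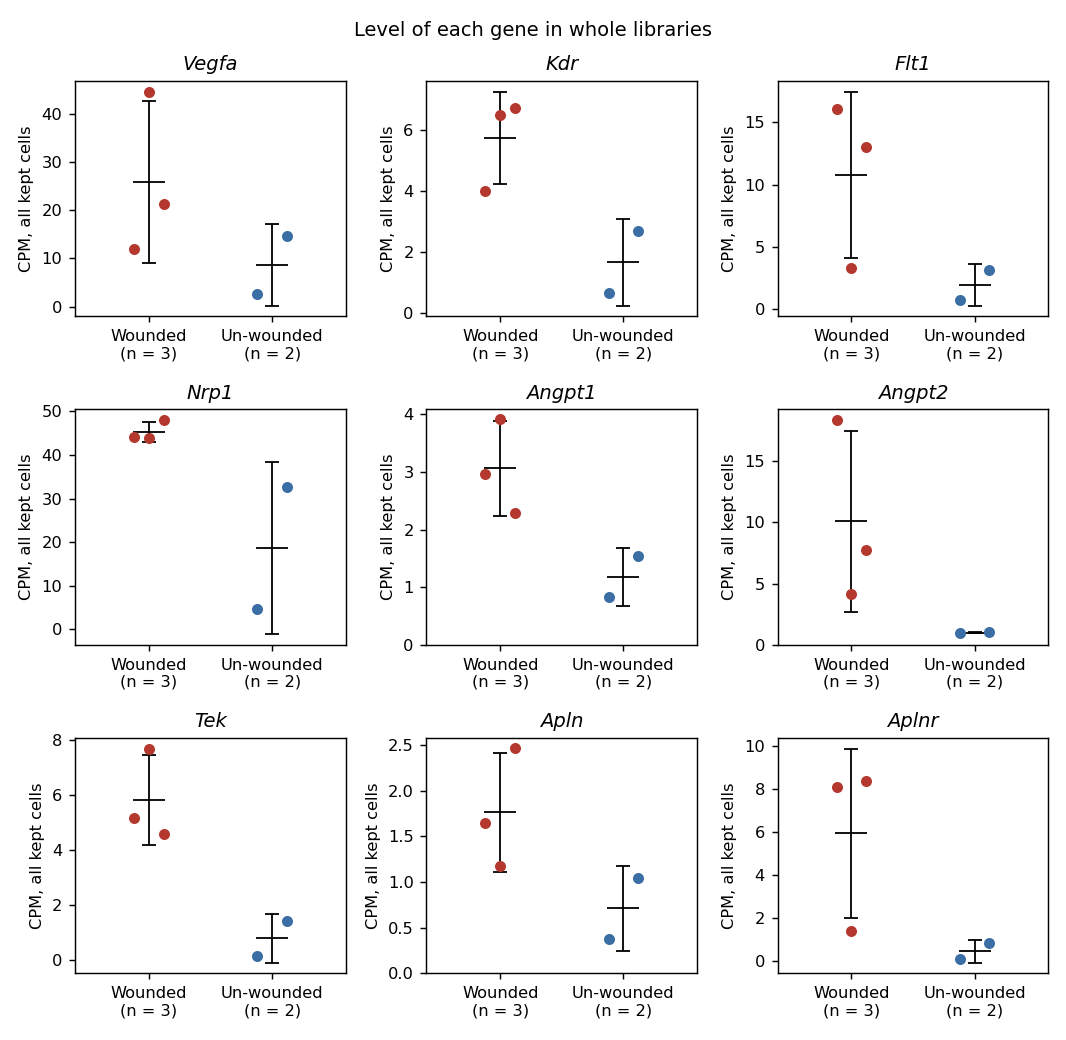
CPM of each gene over all kept cells of a library (y axis, linear, a scale for each gene), for wounded (red, n = 3, left) and un-wounded libraries (blue, n = 2, right); points are libraries, and horizontal lines with bars are the mean and SD. Wounded points lie above un-wounded points for every gene except Vegfa, where wounded library 1 (11.96 CPM) lies below un-wounded library 2 (14.6 CPM).

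Endothelial cells were the class with the highest mean level of Kdr, Flt1, Nrp1, Angpt2, Tek, Apln and Aplnr. Angpt1 was highest in mural cells (pericytes or smooth muscle cells, which wrap vessels), and Vegfa in macrophages. Kdr averaged 208 ± 82.9 CPM in endothelial cells over the 5 libraries (SD), and the next class, mast cells, averaged 8.78 ± 15.2 CPM (n = 3). That mast cell level came from 6 UMIs in 1 cell of wounded library 3. Aplnr averaged 222 ± 154 CPM in endothelial cells and under 3 CPM in every other named class. Flt1 averaged 315 ± 149 CPM in endothelial cells, 64.5 ± 53.4 CPM in mural cells and 17.5 ± 20.5 CPM in dendritic cells. In this order the mural and dendritic levels do not stand apart beyond their spread.

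Nrp1 was the most widely detected of the 9, in 15.5% of all kept cells. It averaged 179.6 ± 28.1 CPM in endothelial cells, 84.1 ± 46.8 in mural cells, 67.4 ± 13.0 in fibroblasts and 60.2 ± 48.1 in macrophages, and only the endothelial level stood apart from the next beyond the SD. Angpt2 averaged 117 ± 74.5 CPM in endothelial cells and 94.8 ± 38.3 CPM in mural cells, which do not differ beyond their spread, and 16.3 ± 9.65 CPM in neutrophils (n = 3). The neutrophil level rests on 3, 3 and 4 UMIs in 1, 3 and 1 cells of wounded libraries 1, 2 and 3. Tek averaged 79.4 ± 45.6 CPM in endothelial cells and 6.85 ± 5.69 CPM in fibroblasts, and under 4 CPM elsewhere. Apln averaged 21.1 ± 16.3 CPM in endothelial cells, 4.32 ± 2.43 CPM in outer root sheath or bulge keratinocytes and 2.31 ± 1.05 CPM in fibroblasts. Angpt1 was low everywhere, with 7.50 ± 5.77 CPM in mural cells and 4.75 ± 1.77 CPM in fibroblasts, which overlap.

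**Figure D2:**
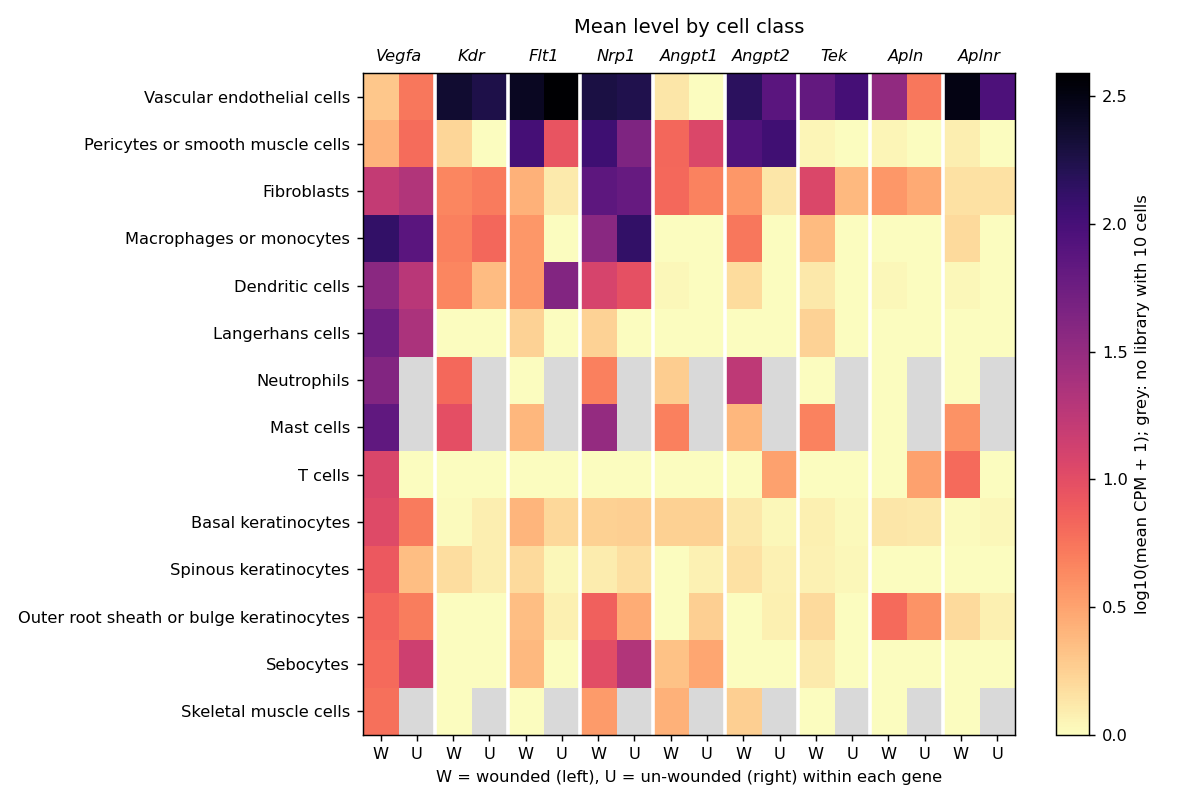
Mean CPM of each gene (columns, wounded left and un-wounded right within a gene) in the 14 named cell classes (rows), drawn as log10(mean CPM + 1); grey marks a class with no library of at least 10 cells in that group. The receptors Kdr, Tek and Aplnr are dark in the top row of endothelial cells, Flt1 is also dark in wounded mural cells, and Vegfa is dark in myeloid rows and pale in endothelial cells.

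Vegfa RNA lay in myeloid cells, fibroblasts and keratinocytes and was nearly absent from the endothelial cells that carry its receptors. Macrophages had 137, 183 and 73.9 Vegfa CPM in wounded libraries, against 74.7 CPM in un-wounded library 2, which held 39 such cells. Un-wounded library 1 held 4 macrophages and no Vegfa UMI in them. Mast cells, found in the wounded libraries only, had 46.6, 89.5 and 65.8 CPM, and wounded neutrophils had 24.3, 68.3 and 26.7 CPM. A further cluster of wounded skin left unnamed, led by Acp5 and Mmp9, genes of bone-resorbing and matrix-degrading phagocytes, had 62.2, 133 and 61.8 CPM. Wounded library 2 was highest in each of these 4 groups of cells. Dendritic cells had 30.8, 54.1 and 21.8 CPM in wounded libraries, against 7.56 and 27.5 CPM in un-wounded libraries, with overlap.

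In fibroblasts Vegfa had 13.7, 19.9 and 11.8 CPM in wounded libraries, against 11.6 and 28.8 CPM in un-wounded libraries, and the groups overlapped (log2 fold change −0.41 ± 0.37, adjusted p = 0.580, edgeR). In basal keratinocytes, which line the basement membrane, it had 3.84, 23.2 and 2.11 CPM in wounded libraries, against 1.70 and 6.61 CPM in un-wounded libraries (0.89 ± 0.84, adjusted p = 0.929). Flt1 and Nrp1 were low in basal cells, at up to 4.09 and 1.36 CPM in wounded and 1.20 and 1.10 CPM in un-wounded libraries, with overlap (log2 fold changes 0.32 and −0.22, adjusted p = 0.988 and 0.984). Spinous keratinocytes, the differentiating layer above, had 2.53, 16.4 and 3.03 CPM in wounded libraries, against 0.620 and 1.87 CPM in un-wounded libraries (1.92 ± 0.84, adjusted p = 0.600). The spinous groups did not overlap, where 5.5% of the genes tested in these cells were higher without overlap, and the counts were 10, 6 and 3 UMIs in wounded and 4 and 12 UMIs in un-wounded libraries. By edgeR, 0 of 3 tested genes passed in basal cells (0 at unadjusted p under 0.05, 0.788% of all genes called) and 0 of 1 in spinous cells (1 at unadjusted p under 0.05, 1.07% called); DESeq2 called none in either. With the replicate number as a block, Vegfa in spinous cells had a log2 fold change of 2.72 and an adjusted p of 0.0196. Nothing in the labels pairs libraries of the same number, and wounded library 3 has no partner, so this block may not be a real pairing.

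Of all Vegfa UMIs, macrophages held 28.2, 31.7 and 51.5% in wounded libraries, against 0 and 2.32% in un-wounded libraries. The fibroblast share averaged 28.4 ± 9.90% in wounded and 53.1 ± 29.7% in un-wounded libraries (exact permutation p = 0.3, two-sided over 10 assignments, of which the smallest possible p is 0.1). Macrophages were a much larger part of the wounded libraries, with 287, 410 and 943 cells against 4 and 39 in un-wounded libraries.

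**Figure D3:**
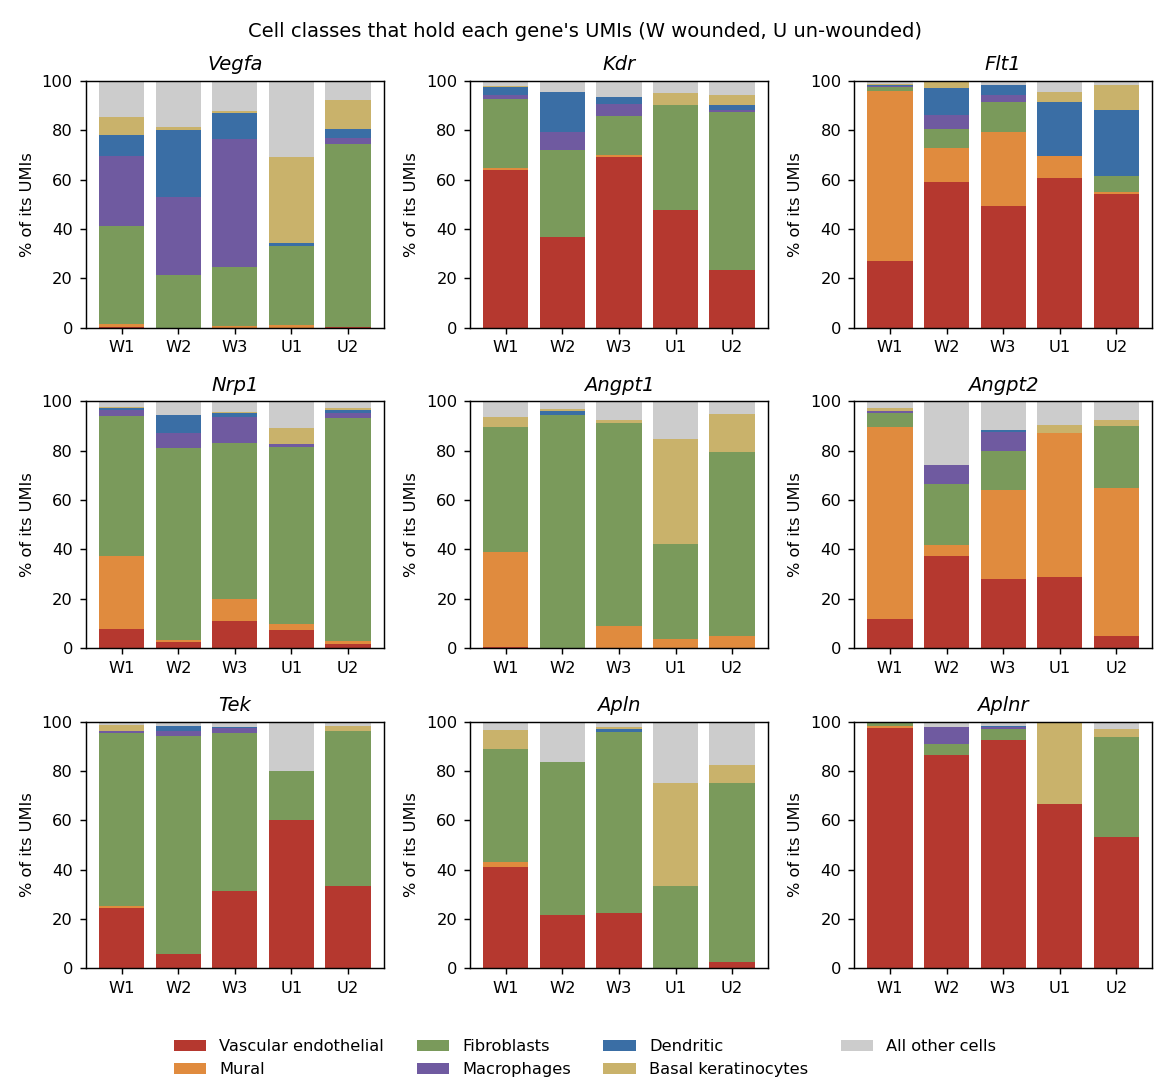
Share of each gene's UMIs in a library that lies in each cell class (stacked bars adding up to 100%; W1 to W3 are wounded and U1 and U2 un-wounded libraries). Fibroblasts (green) hold most Nrp1, endothelial cells (red) most Aplnr, and the mural share of Flt1 (orange) is 68.6, 13.6 and 29.9% in wounded and 8.70 and 0.833% in un-wounded libraries.

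Endothelial cells made up 1.40, 0.797 and 2.36% of kept cells in wounded libraries, against 0.378 and 0.370% in un-wounded libraries, which is 99, 35 and 94 cells against 19 and 19 (means 1.52 ± 0.787% and 0.374 ± 0.0051%, exact permutation p = 0.2). All 8 vascular markers were detected in each library, and their summed level was 5614 to 7062 CPM in wounded and 8151 and 8318 CPM in un-wounded endothelial cells. The class also held lymphatic cells. The sum of 4 lymphatic markers was 43.7, 4527 and 3035 CPM in wounded libraries, against 26570 and 3681 CPM in un-wounded libraries, and 2, 8 and 15 wounded and 8 and 1 un-wounded cells carried at least 2 of them. Over all libraries the 34 cells with lymphatic markers had 5.20 CPM of Aplnr, 31.2 of Flt1 and 20.8 of Nrp1, against 368.5, 293 and 209 CPM in the other 232 endothelial cells. Kdr did not follow that split, with 270.4 CPM in the lymphatic-marker cells and 178 CPM in the others.

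Within endothelial cells Aplnr was higher in wounded skin without overlap, but not past the threshold. It had 415, 179 and 337 CPM in wounded libraries, against 29.3 and 150.4 CPM in un-wounded libraries (log2 fold change 1.64 ± 0.58, unadjusted p = 0.0224, adjusted p = 0.270, edgeR), from 428, 39 and 307 UMIs against 2 and 17. Among all genes tested in these cells 18.5% were higher in wounded libraries without overlap. A UMI of Aplnr was found in 73.7, 42.9 and 58.5% of wounded endothelial cells, against 5.26 and 31.6% of un-wounded ones, and in at most 0.0747% of basal keratinocytes of any library. Median depth was 8936, 3984 and 6620.5 UMIs in wounded endothelial cells and 2579 and 4918 in un-wounded ones, and after thinning each cell to 1500 UMIs the shares were 35.4, 14.3 and 36.2% against 0 and 15.8%. The thinned groups overlapped, since wounded library 2 lay just below un-wounded library 2. Without the lymphatic-marker cells, the log2 fold change of Aplnr was 1.53 (adjusted p = 0.199).

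Its ligand Apln had 37, 8 and 22 UMIs in wounded endothelial cells, against 0 and 1 in un-wounded ones, or 35.9, 36.7 and 24.1 CPM against 0 and 8.85 CPM. The 2 cells with most Apln UMIs held 14 of the 37, all 8 and 15 of the 22 in wounded libraries 1, 2 and 3. The gene fell below the filter on low counts and was not tested. The ratio of pooled levels, wounded over un-wounded, was 5.62, with a counting interval (95%) from 0.974 to 225, so the depth of the un-wounded libraries does not resolve it. In un-wounded library 1 none of 19 cells carried a UMI, which allows a share of up to 15.8%. Endothelial cells held 28.4 ± 11.0% of a library's Apln UMIs in wounded and 1.25 ± 1.77% in un-wounded libraries (exact permutation p = 0.1, the smallest possible). Fibroblasts held 60.4 ± 14.0% in wounded and 52.9 ± 27.7% in un-wounded libraries (exact permutation p = 0.6), and in un-wounded library 1 they held 4 of its 12 Apln UMIs, against 5 in basal keratinocytes.

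Kdr had 136, 344 and 203 CPM in wounded endothelial cells, against 147 and 212 CPM in un-wounded ones (log2 fold change 0.27 ± 0.50, adjusted p = 0.852, edgeR). Flt1 had 232, 279.8 and 281 CPM in wounded endothelial cells, against 205 and 575 CPM in un-wounded ones (−0.63 ± 0.43, adjusted p = 0.551). Nrp1 had 177, 156 and 227 CPM in wounded endothelial cells, against 161 and 177 CPM in un-wounded ones (0.13 ± 0.32, adjusted p = 0.894). All 3 VEGF receptors overlapped between the groups.

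Tek had 67.0, 64.2 and 62.5 CPM in wounded endothelial cells, against 44.0 and 159 CPM in un-wounded ones (log2 fold change −0.80 ± 0.47, adjusted p = 0.494, edgeR). Angpt2 had 115, 225 and 94.3 CPM in wounded endothelial cells, against 132 and 17.7 CPM in un-wounded ones (1.09 ± 0.75, adjusted p = 0.553). The un-wounded libraries set the width of both overlaps, with 3 and 18 Tek UMIs and 9 and 2 Angpt2 UMIs. Vegfa and Angpt1 had at most 2 UMIs in the endothelial cells of any library. In all, 0 of 6 tested genes passed in endothelial cells by edgeR and by DESeq2, 1 had an unadjusted p under 0.05, and 0.951% of all genes tested there were called.

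Of 266 endothelial cells, 184 held a Flt1 UMI, 167 a Kdr UMI, 156 an Nrp1 UMI, 150 an Aplnr UMI, 99 a Tek UMI, 73 an Angpt2 UMI and 27 an Apln UMI. Kdr and Flt1 occurred together in 122 cells, against 115.5 from their separate shares. Flt1 and Aplnr occurred together in 129 cells, against 103.8, Apln and Aplnr in 24, against 15.2, and Angpt2 and Apln in 18, against 7.41. Deep cells hold more UMIs of every gene, so these overlaps are descriptions and share the depth of each cell.

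**Figure D4:**
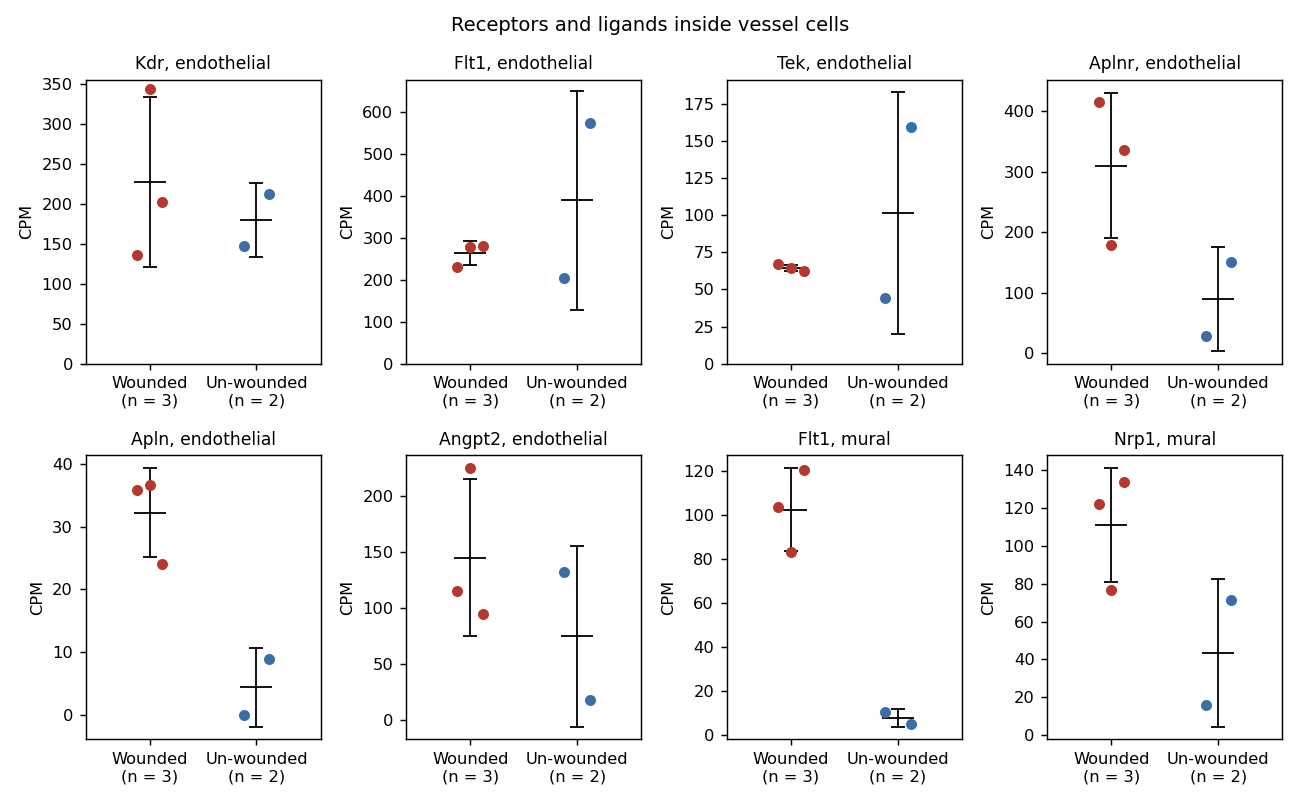
CPM inside endothelial cells (Kdr, Flt1, Tek, Aplnr, Apln, Angpt2) and mural cells (Flt1, Nrp1), for wounded (red, n = 3, left) and un-wounded libraries (blue, n = 2, right); points are libraries, lines and bars the mean and SD. Kdr, Flt1, Tek and Angpt2 overlap in endothelial cells, while mural Flt1 is 82.9 to 120.5 CPM in wounded and 5.09 to 10.7 CPM in un-wounded libraries.

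Flt1 rose in mural cells of wounded skin. It had 103, 82.9 and 120.5 CPM in wounded mural cells, against 10.7 and 5.09 CPM in un-wounded ones, from 601, 14 and 155 UMIs against 2 and 1 (log2 fold change 3.74 ± 0.50, adjusted p = 0.0046, edgeR). The groups were far apart, and the ratio of pooled levels was 13.5 with a counting interval (95%) from 4.62 to 65.8. Among 3012 genes tested in mural cells, 16.5% were called, 8.33% as higher and 8.17% as lower, and 25.2% were higher without overlap. Flt1 was called by edgeR and by DESeq2. It passed the filter on low counts through the wounded libraries, where it is high, and Vegfa and Angpt1, at like un-wounded levels, did not pass. Without un-wounded library 1 its log2 fold change was 4.43 (adjusted p = 0.0343), without un-wounded library 2 it was 3.37 (adjusted p = 0.0507), and over 16 alternatives the adjusted p ranged from 2.5e-08 to 0.111.

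A Flt1 UMI was found in 40.3, 25.0 and 56.3% of wounded mural cells, against 2.00 and 3.33% of un-wounded ones, and in at most 0.794% of basal keratinocytes of any library. Mural cells differed widely in number and depth between libraries. They numbered 598, 20 and 87 in wounded and 50 and 30 in un-wounded libraries (3.70 ± 4.22% and 0.789 ± 0.289% of kept cells, exact permutation p = 0.7), with median depths of 8664, 5419 and 13170 UMIs against 3135.5 and 5911. After thinning to 1500 UMIs, Flt1 was found in 10.2, 0 and 10.3% of wounded mural cells, against 0 and 0% of un-wounded ones. Wounded library 2, with 20 cells, was then at 0 like the un-wounded libraries.

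Summed endothelial markers in the mural class overlapped between the groups, and their part in the Flt1 result was not tested. The summed level of the 8 endothelial markers was 448, 231 and 410.3 CPM in wounded mural cells, against 379 and 249.5 CPM in un-wounded ones. It was 434 CPM in mural cells with a Flt1 UMI and 426 CPM in those without, against 7074 CPM in endothelial cells with a Flt1 UMI. Kdr was at or near 0, with 2, 0 and 2 UMIs in wounded and none in un-wounded mural cells. Cdh5, the endothelial cadherin, had 2 UMIs in wounded mural cells with a UMI of Kcnj8 or Abcc9. It had 2 in the other wounded mural cells and none in un-wounded ones. Pecam1, another of the 8 markers, had 14 UMIs in the wounded mural cells with a UMI of Kcnj8 or Abcc9 and 1 in the others. It had none in un-wounded mural cells, which held 383572 UMIs in all, against 7271641 in wounded ones.

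The make-up of the mural class moved with the groups, and its part in the Flt1 result was not tested. Kcnj8 and Abcc9, potassium channel subunits of pericytes, had 398, 314 and 329 CPM and 118, 94.7 and 131 CPM in wounded mural cells, against 74.8 and 5.09 CPM and 21.4 and 15.3 CPM in un-wounded ones. Myh11, the smooth muscle myosin, had 325, 705 and 344 CPM in wounded mural cells, against 1266 and 1711 CPM in un-wounded ones. Of the other mural markers listed, Rgs5 and Mcam were also higher in wounded libraries without overlap, and Acta2 and Tagln lower. Cspg4 overlapped, with 56.2, 82.9 and 52.1 CPM in wounded mural cells, against 69.45 and 81.5 CPM in un-wounded ones. Notch3 overlapped too, with 347, 355 and 341 CPM against 288.5 and 387 CPM. A UMI of Kcnj8 or Abcc9 was found in 65.2, 30 and 73.6% of wounded mural cells, against 14.0 and 10.0% of un-wounded ones.

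Among mural cells with such a UMI, Flt1 had 117.5, 139 and 125 CPM in wounded libraries, against 91.9 and 33.3 CPM in un-wounded libraries, where it rests on 2 and 1 UMIs in 7 and 3 cells. Among those without, it had 62.0, 0 and 104 CPM in wounded libraries (208, 14 and 23 cells), and no UMI in the 43 and 27 cells of the un-wounded libraries. The groups did not overlap among cells with such a UMI, and wounded library 2 was at 0 like the un-wounded libraries among cells without one. The un-wounded counts are too low for a test on either side. In sums of cells with a Myh11 UMI (412, 15 and 65 wounded, 38 and 28 un-wounded), the log2 fold change of Flt1 was 5.03 with an adjusted p of 0.111. The sum of fibroblast markers was also higher in wounded mural cells, with 4329, 5098 and 5655 CPM against 678.5 and 1543 CPM in un-wounded ones, and that of basal keratinocyte markers was 843.5, 343 and 119.7 CPM against 2767 and 922 CPM. Their part in the result was not tested.

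Nrp1 had 122, 77.0 and 134 CPM in wounded mural cells, against 16.03 and 71.3 CPM in un-wounded ones, without overlap but short of the threshold (log2 fold change 1.40 ± 0.50, adjusted p = 0.0907, edgeR). With the replicate number as a block, a pairing that the labels do not give, it was 1.33 (adjusted p = 0.0199). Angpt2 had 134, 35.5 and 86.3 CPM in wounded mural cells, against 96.2 and 122 CPM in un-wounded ones, and the groups overlapped (−0.20 ± 0.41, adjusted p = 0.776). Mural cells held 39.5 ± 36.7% of a library's Angpt2 UMIs in wounded and 59.0 ± 1.37% in un-wounded libraries (exact permutation p = 0.6). Angpt1, the ligand that mural cells present to endothelial Tek, had 62, 0 and 8 UMIs in wounded and 1 and 3 UMIs in un-wounded mural cells and was too low to test.

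The fitted wound effect on Flt1 differed between the vessel cell types, though its mural side rests on 2 and 1 un-wounded UMIs. Flt1 passed the filter in mural cells through the wounded libraries, and the make-up of the mural class was not part of the fit. The difference of effects, endothelial minus mural, was −4.28 ± 0.60 on the log2 scale (interaction term, adjusted p = 0.0109, edgeR), where 1.83% of genes were called, and DESeq2 called it too. Without un-wounded library 1 it was −5.40 (adjusted p = 0.0058), and without un-wounded library 2 −2.75 (adjusted p = 0.380). For Nrp1 the same difference was −1.15 ± 0.49 (adjusted p = 0.296).

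Tek rose in fibroblasts of wounded skin. It had 10.5, 14.2 and 6.73 CPM in wounded fibroblasts, against 0.428 and 2.36 CPM in un-wounded ones, from 198, 213 and 117 UMIs against 1 and 34 (log2 fold change 2.55 ± 0.49, adjusted p = 0.0154, edgeR). The groups did not overlap, and the ratio of pooled levels was 4.94 (95% counting interval 3.51 to 7.17). Among 13314 genes tested in fibroblasts 7.33% were called, 5.75% as higher, and 18.2% were higher without overlap. A Tek UMI was found in 7.24, 7.17 and 6.47% of wounded fibroblasts, against 0.206 and 1.598% of un-wounded ones, at median depths of 6942, 6569 and 9497 UMIs against 4850 and 6837. In basal keratinocytes the share was at most 0.377% in any library. After thinning to 1500 UMIs the fibroblast shares were 1.04, 1.74 and 1.21% in wounded and 0.209 and 0.436% in un-wounded libraries, again without overlap. Without un-wounded library 2, which leaves 1 Tek UMI in un-wounded fibroblasts, the log2 fold change was 4.68 (adjusted p = 0.032).

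Most of the Tek UMIs of wounded fibroblasts lay in one cluster. Cluster 26, led by Cxcl13 and Thbs4, made up 17.3, 14.7 and 13.8% of wounded fibroblasts, against 0.412 and 0.484% of un-wounded ones, and held 60.1, 73.2 and 58.1% of the wounded fibroblast Tek UMIs. Its level was 32.3, 53.6 and 28.8 CPM in wounded libraries, against 30.1 CPM in un-wounded library 2, where it had 10 cells and 3 UMIs. Un-wounded library 1 had 2 such cells and no Tek UMI in them. Within this cluster no difference between the groups could be seen at that depth. Cluster 19, led by Cxcl5, Sfrp2 and Cthrc1, made up 18.2, 8.49 and 26.7% of wounded fibroblasts, against 0 and 0.0484% of un-wounded ones, and held 26.8, 15.02 and 29.1% of the wounded fibroblast Tek UMIs.

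Of the clusters present in all libraries, cluster 14 was higher in wounded skin without overlap, and in cluster 11 the groups overlapped. Cluster 14, led by Lbp, Dpep1 and Gpx3, had 18.1, 18.4 and 9.47 Tek CPM in wounded libraries, against 0 and 6.40 CPM in un-wounded libraries. Cluster 11, led by Cpz and Col1a1, had 0.955, 0.426 and 0.673 CPM in wounded libraries, against 0 and 2.21 CPM in un-wounded libraries, where un-wounded library 2 held 18 of its 34 fibroblast Tek UMIs. Clusters 12 and 16 had at most 2 Tek UMIs in any library. Without clusters 19 and 26, which were over 3 times more common in wounded than un-wounded libraries, the log2 fold change of Tek in fibroblasts was 0.79 (adjusted p = 0.638). Endothelial markers were no higher in fibroblasts with a Tek UMI than in those without, and their part in the Tek result was not tested. Their summed level was 60.3 CPM in 421 fibroblasts with a Tek UMI and 75.3 CPM in 7643 without, against 7169 CPM in endothelial cells with a Tek UMI. By library that sum was 79.2, 60.2 and 90.2 CPM in wounded fibroblasts, against 137 and 52.7 CPM in un-wounded ones.

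**Figure D5:**
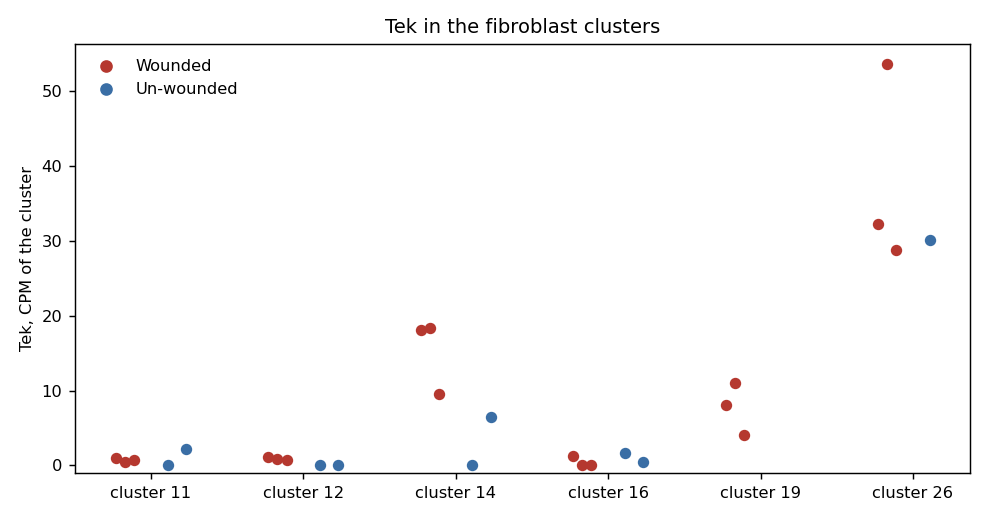
Tek level (CPM of the cluster, y axis) in the 6 fibroblast clusters (x axis), one point per library with at least 10 cells of the cluster, wounded red (left) and un-wounded blue (right). Cluster 26 stands highest at 28.8 to 53.6 CPM in wounded libraries and 30.1 CPM in the 1 un-wounded library shown, and cluster 19 has wounded points only.

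The wound effect on Tek differed between endothelial cells and fibroblasts, by −3.17 ± 0.58 on the log2 scale (endothelial minus fibroblasts, interaction term, adjusted p = 0.0020, edgeR, 1.1% of genes called). DESeq2 called it too, and without un-wounded library 2 it was −3.55 (adjusted p = 0.509). Fibroblasts held 70.2, 88.4 and 64.3% of a library's Tek UMIs in wounded and 20 and 63.0% in un-wounded libraries (means 74.3 ± 12.6% and 41.5 ± 30.4%, exact permutation p = 0.1, the smallest possible, adjusted over the 9 genes 0.45). The un-wounded shares rest on 5 and 54 Tek UMIs. The difference for Aplnr was 2.19 ± 0.72 (adjusted p = 0.183), and its endothelial share was 92.1 ± 5.31% in wounded and 59.9 ± 9.58% in un-wounded libraries (exact permutation p = 0.1, adjusted 0.45). These un-wounded shares rest on 3 and 32 Aplnr UMIs.

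Angpt2 in fibroblasts had 56, 32 and 49 UMIs in wounded libraries, against 0 and 10 in un-wounded libraries, or 2.97, 2.14 and 2.82 CPM against 0 and 0.693 CPM. It was higher without overlap and just short of the threshold by edgeR (log2 fold change 2.34 ± 0.61, adjusted p = 0.0520), and DESeq2 called it (adjusted p = 0.0312). Angpt2 passed the filter on low counts in fibroblasts through the wounded libraries, where it is high. Nrp1, of which fibroblasts held 66.0 ± 10.7% of UMIs in wounded and 81.3 ± 13.3% in un-wounded libraries, had 72.6, 71.5 and 69.3 CPM in wounded fibroblasts, against 44.9 and 78.7 CPM in un-wounded ones (0.27 ± 0.26, adjusted p = 0.613). Angpt1 had 4.34, 7.76 and 4.32 CPM in wounded fibroblasts, against 4.28 and 3.05 CPM in un-wounded ones, without overlap by a narrow gap (0.76 ± 0.39, adjusted p = 0.301). For Kdr, Apln, Flt1 and Aplnr the fibroblast log2 fold changes were −0.23, 0.56, 2.00 and −0.51, with adjusted p from 0.337 to 0.821 and overlapping groups. In all, 1 of the 9 genes passed in fibroblasts by edgeR, where 7.33% of all genes did, and 2 by DESeq2, where 9.83% did. Between fibroblasts and basal keratinocytes no difference of wound effects passed for any of the 9 genes by edgeR (0 at unadjusted p under 0.05, 1.74% of genes called).

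A pair of myeloid levels went the other way and were chosen after their values were seen, so they carry no test. Flt1 in dendritic cells had 1.10, 1.56 and 5.26 CPM in wounded libraries, against 37.8 and 41.9 CPM in un-wounded libraries (2, 11 and 22 UMIs against 5 and 32), a ratio of pooled levels of 0.0649 (95% counting interval 0.0397 to 0.106). The larger dendritic cluster, led by Cd209a, held nearly all of these cells in un-wounded skin and showed the same order, with 1.29, 1.69 and 6.07 CPM against 37.8 and 42.5 CPM. Nrp1 in macrophages had 41.5, 33.0 and 34.2 CPM in wounded libraries, against 132 CPM in the 39 macrophages of un-wounded library 2, where the sum of dendritic markers was 1834 CPM, against 462, 214 and 137 CPM in wounded macrophages.

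Genes whose level across the 14 classes was most like that of each gene were ranked by Pearson correlation of log2(CPM + 10) among 5524 candidates, as a description over classes that share libraries. For Kdr they were S1pr1 (0.987), Icam2 and Cdh5, for Flt1 Adgrf5 (0.957), Esam and Tmem252, and for Tek Adcy4 (0.987), Plscr2 and Prex2. For Aplnr they were Fam167b (0.996), Adgrl4 and AU021092, for Apln Myzap (0.991), Sema6a and Clec14a, and for Angpt2 Apold1 (0.996), Pde2a and Esam. For Vegfa they were Itgam (0.947), the integrin subunit of myeloid cells, Cd84 and Gas2l3. Angpt1 was most like Pdgfrb (0.920), the platelet-derived growth factor receptor of mural cells, Arhgef25 and Lhfp, and Nrp1 most like Iigp1 (0.916) and Anxa3.

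Other ligands and receptors of the VEGF family were tested with the same fits. Of 7 listed symbols 6 were in the tables, and 1 of 6 was called higher in whole libraries, 1 of 5 higher in fibroblasts and 2 of 3 lower in mural cells, with none of 4 called in basal, of 2 in spinous and of 2 in endothelial cells. Over all genes, 0.626% were called in whole libraries, 5.75% as higher in fibroblasts and 8.17% as lower in mural cells. Pgf, placental growth factor, which binds Flt1 but not Kdr, had 43.1, 66.5 and 94.3 CPM in wounded libraries, against 5.29 and 5.26 CPM in un-wounded libraries (log2 fold change 3.73 ± 0.47, adjusted p = 0.0461, edgeR). This call was lost in 6 of 13 alternatives, at adjusted p up to 0.193. Its highest levels were in Langerhans cells, the dendritic cells of the epidermis, with 691 and 2388 CPM in wounded libraries 1 and 3, against 219 CPM in un-wounded library 1, and in dendritic cells, with 380.4, 218 and 583 CPM in wounded and 45.4 and 45.9 CPM in un-wounded libraries. In mural cells Pgf fell, to 97.1, 59.2 and 66.1 CPM in wounded libraries, against 192 and 275 CPM in un-wounded libraries (−1.60 ± 0.29, adjusted p = 0.0101). Without un-wounded library 2 the mural value was −1.24 (adjusted p = 0.138).

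Figf is the older symbol of Vegfd, whose product binds the lymphatic receptor Flt4. It had 56.4, 42.3 and 86.7 CPM in wounded fibroblasts, against 9.84 and 9.49 CPM in un-wounded ones (log2 fold change 2.79 ± 0.37, adjusted p = 0.0034, edgeR). The call was lost without clusters 19 and 26 (1.35, adjusted p = 0.370). In mural cells Figf had 8.77, 11.8 and 14.0 CPM in wounded libraries, against 53.4 and 56.0 CPM in un-wounded libraries (−2.32 ± 0.62, adjusted p = 0.0382), and the call was lost without wounded library 1 or 3 or either un-wounded library. Among 4 partners of the TIE and apelin pathways, Angpt4, a further Tek ligand, was the only gene called. It was higher in fibroblasts, at 4.61, 2.01 and 8.63 CPM in wounded libraries, against 0.856 and 0.416 CPM in un-wounded libraries (3.44 ± 0.83, adjusted p = 0.0393, edgeR). Angpt4 passed the filter on low counts through the wounded libraries, where it is high, which limits this call. That call was lost in 4 of 15 alternatives, among them without wounded library 3 (2.72, adjusted p = 0.0645), un-wounded library 1 (3.68, adjusted p = 0.0692) or un-wounded library 2 (2.69, adjusted p = 0.317).

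Inhibitors of angiogenesis and semaphorins (7 genes) had 1 of 6 tested called higher in fibroblasts, 1 of 2 in endothelial cells and 2 of 3 in mural cells, and none of 7 in whole libraries or of 5 in each keratinocyte class. Over all genes, 5.75% were called higher in fibroblasts, 0.951% either way in endothelial cells and 8.33% higher in mural cells. Col18a1, the basement membrane collagen that contains endostatin, had 307, 330.2 and 328 CPM in wounded endothelial cells, against 44.0 and 70.8 CPM in un-wounded ones (log2 fold change 2.41 ± 0.38, adjusted p = 0.0373, edgeR). In mural cells it had 450.1, 379 and 558 CPM in wounded libraries, against 37.4 and 143 CPM in un-wounded libraries (2.37 ± 0.48, adjusted p = 0.0148). Both groups stood well apart in both cell types, though the endothelial call was lost in 6 of 16 alternatives and the mural call in 2 of 16. Without un-wounded library 2 the endothelial value was 3.09 (adjusted p = 0.0858) and the mural value 3.72 (adjusted p = 0.0191). Thbs1, thrombospondin, rose in fibroblasts (2.65 ± 0.32, adjusted p = 0.0025, edgeR). It had 173, 258 and 225 CPM in wounded against 28.2 and 45.0 CPM in un-wounded libraries. Its relative Thbs2 was called higher in mural cells (4.11 ± 0.99, adjusted p = 0.0256, edgeR). Thbs2 had 36.3, 53.3 and 54.4 CPM in wounded against 5.34 and 0 CPM in un-wounded libraries. In mural cells of un-wounded library 1, 5.34 CPM is 1 UMI. Thbs2 thus passed the filter on low counts through the wounded libraries, where it is high. The Thbs2 call was lost with doublets kept (0.21, adjusted p = 0.871) and without either un-wounded library.

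Of 8 genes of sprouting endothelium none was called in whole libraries, where 6 had an unadjusted p under 0.05 (25.9% of all genes) and their median log2 fold change was 2.36, against −0.04 for all genes, and 0 of 7 tested were called in endothelial cells, where the median was 0.36. The 1 call was Apold1, lower in mural cells at 178, 136 and 278 CPM in wounded libraries, against 529 and 519 CPM in un-wounded libraries (−1.35 ± 0.32, adjusted p = 0.0239, edgeR), lost in 6 of 16 alternatives. Of 11 hypoxia regulators and targets, 2 were called higher in fibroblasts, where 5.75% of all genes were, and 1 in spinous keratinocytes, where 1.07% were called. Hif1a had 106, 94.6 and 121 CPM in wounded fibroblasts, against 54.3 and 55.9 CPM in un-wounded ones (1.06 ± 0.22, adjusted p = 0.0238), and Epas1, the endothelial-enriched hypoxia-inducible factor, had 7.73, 10.1 and 16.1 CPM against 0.856 and 2.29 CPM (2.65 ± 0.49, adjusted p = 0.0140). Hif1a lost its call in 5 and Epas1 in 3 of 16 alternatives, among them the sums without clusters 19 and 26 (adjusted p = 0.642 and 0.203). Ndrg1 had 39.2, 74.0 and 56.6 CPM in wounded spinous keratinocytes, against 24.3 and 15.6 CPM in un-wounded ones (1.59 ± 0.33, adjusted p = 0.0265), and lost its call in 4 of 15 alternatives.

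Among 5 genes of mural cell recruitment, Cxcl12, a chemokine of stromal cells, was the only one called. It had 434, 381 and 808 CPM in wounded fibroblasts, against 93.3 and 167 CPM in un-wounded ones (log2 fold change 2.16 ± 0.45, adjusted p = 0.0217, edgeR), and the call was lost without un-wounded library 1 (adjusted p = 0.114) and without clusters 19 and 26 (adjusted p = 0.157). The median over the 9 angiogenic genes was 1.84 on the log2 scale in whole libraries, against −0.04 over all genes, and 0.20 over the 6 of them tested in endothelial cells, against −0.00086 over all genes there.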

How the data were processed

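Single-cell RNA libraries of mouse skin (3 wounded, 2 un-wounded) were made with the 10x Genomics 3′ chemistry, per the labels' protocols. The deposited files hold, for every barcode, whole-number UMI counts of genes that the authors obtained with Cell Ranger 1.3.1 on mm10, per the submitters' processing notes. The strand setting is not given in the sources used here. The 9 genes and the pathway lists were chosen with earlier results of these data known.

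Barcodes with under 200 genes or over 10% mitochondrial UMIs were left out, as were those with the highest Scrublet scores, at 0.8% per 1000 barcodes, because the caller's own threshold marked only 1 to 36 barcodes a library. The 25597 kept cells were clustered without the 9 genes (scanpy 1.11.5, 2000 variable genes, 30 principal components, 15 neighbours, Leiden resolution 1.0), and clusters were named by marker lists with at least 3 detected markers. The counts were summed per library and class and tested, wounded against un-wounded, with edgeR 4.0.16 (filterByExpr, TMM, quasi-likelihood test, Benjamini-Hochberg adjustment over all genes tested, threshold 0.05). Differences of wound effects between classes were interaction terms with the library as a block. Each fit used the groups compared, with at least 10 cells per library. Single shares were compared by an exact permutation test over 10 assignments (two-sided, smallest p 0.1). Thinning drew 1500 UMIs per cell, and intervals are exact binomial at 95%, with a floor of 3 counts for a count of 0. DESeq2 1.42.0, other filters, clusterings and left-out libraries were alternatives. Tested on simulated counts, the fits recovered 4-fold changes of 29% of changed genes in whole libraries, 90% in fibroblasts, 68% in endothelial cells and 88% in mural cells. For 2-fold changes the recovery was 0% in whole libraries, 18% in fibroblasts, 5% in endothelial cells and 19% in mural cells. A gene not called may therefore still have changed by that much.

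All 9 genes are given in each class fitted, list genes where the adjusted p was under 0.05, and the 3 genes most like each one among those with at least 50 CPM in 1 class. One gene that this rule would name is not reported here.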

Additional observations from a re-analysis of the deposited data

Results flagged for a closer look

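The wound effect on Tek differed between endothelial cells and fibroblasts by −3.17 on the log2 scale (endothelial minus fibroblasts, edgeR interaction term, adjusted p = 0.0020), and was singled out by that test of the difference. The fitted wound effect on Flt1 differed between endothelial and mural cells by −4.28 (endothelial minus mural, adjusted p = 0.0109, edgeR). Its mural side rests on 2 and 1 un-wounded UMIs. The alternatives for these differences did not include sums without the fibroblast clusters more common in wounded libraries, nor sums of mural cells with a Myh11 UMI. Without those clusters, the log2 fold change of Tek in fibroblasts alone was 0.79 (adjusted p = 0.638, edgeR). In mural cells with a Myh11 UMI, Flt1 had an adjusted p of 0.111 (edgeR). Within the 9 alternatives run for each difference, both directions held, with values from −3.55 to −2.65 for Tek and from −5.40 to −2.75 for Flt1. Neither passed without un-wounded library 2, where un-wounded library 1 alone, with 19 endothelial cells, stood for un-wounded skin.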

How the results depend on the processing

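The un-wounded side rests on 2 libraries with 19 endothelial cells each, which limits every endothelial comparison. Over 16 alternatives the log2 fold change of Flt1 in mural cells ranged from 3.11 to 10.2, and that of Tek in fibroblasts from 0.79 to 4.68. Among single genes in all alternatives, 665 values kept direction and side of the threshold, 54 lost a call, 20 gained one and 29 reversed.

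The count of genes called in whole libraries was 97 and became 2666 with DESeq2, 726 with no filter, 0 with only the replicate block and 0 without the 2 cells that held most UMIs of each gene, where 4158 and 3730 genes had an unadjusted p under 0.05 (edgeR), and 0 to 2158 with a library left out. Basal keratinocytes had 94 calls, 191 with DESeq2, 358 with no filter, 47 without TMM and 7 to 250 with a library left out. Spinous keratinocytes had 107, with 187 with no filter, 472 with the block, 170 with doublets kept, 167 at Leiden resolution 2.0, 175 with the 9 genes in the clustering and 22 to 209 with a library left out. Fibroblasts had 976, with 1865 with no filter, 1717 with the block, 374 with doublets kept, 28 without the wound-rich clusters (chosen after seeing the data) and 381 to 1341 with a library left out. Endothelial cells had 31, with 83 with DESeq2, 181 with no filter, 0 with the block (324 unadjusted, edgeR), 0 without the 2 top cells (296 unadjusted) and 0 to 45 with a library left out. Mural cells had 497, with 1056 with no filter, 10 in cells with Myh11 and 97 to 802 with a library left out. For differences of effects, fibroblasts minus basal had 243, 779 with no filter and 83 to 542 with a library left out, endothelial minus fibroblasts 117, 184 and 67 to 167, and endothelial minus mural 73, 235 and 7 to 168.

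Without TMM the split of higher and lower calls was 147 and 29 for fibroblasts minus basal (155 and 88 with it), 24 and 83 for endothelial minus fibroblasts (44 and 73) and 28 and 37 for endothelial minus mural (40 and 33). It moved the median of all genes by −0.21 in basal and −0.16 in spinous cells.

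None of the values that reversed had passed the threshold, and the cause was not tested. With the replicate block they were Nrp1 in basal cells (0.26) and endothelial cells (−0.036), and Kdr (0.025) and Apln (−0.089) in fibroblasts. With a library left out, the range in basal cells was −0.12 to 0.33 for Nrp1, −0.11 to 2.15 for Vegfa and −0.71 to 0.78 for Flt1, and in fibroblasts −0.0021 to 0.83 for Apln, −0.078 to 0.77 for Nrp1, −0.86 to 0.50 for Vegfa and −0.92 to 5.63 for Aplnr. In endothelial cells it was −0.051 to 0.45 for Nrp1, −0.072 to 0.82 for Kdr, −1.01 to 0.59 for Flt1 and −1.19 to 0.77 for Tek, in mural cells −0.57 to 0.054 for Angpt2, and for endothelial minus fibroblasts −0.13 to 0.41 for Nrp1, −6.85 to 1.13 for Angpt2 and −0.84 to 3.02 for Aplnr. With doublets kept Nrp1 in basal cells (0.47) and Apln in fibroblasts (−0.12) reversed, and in clustering with the 9 genes Nrp1 in basal cells (0.12). Without the wound-rich clusters, Apln (−0.12) and Angpt1 (−0.056) reversed in fibroblasts, without lymphatic-marker cells endothelial Nrp1 (−0.028), without the 2 top cells of each gene endothelial Kdr (−0.063), in cells with Myh11 mural Angpt2 (0.17), and without TMM Nrp1 for endothelial minus fibroblasts (−0.017). The sums without wound-rich clusters or lymphatic-marker cells and with Myh11 were chosen after seeing the data. The wounded minus un-wounded share of UMIs in the main class was −12.1 to 27.1 points for Apln with a library left out and −33.1 with doublets kept, and −7.69 for Angpt1 with doublets kept.

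Replicate numbers are shared by 2 pairs only, and the same-numbered libraries' deviations correlated at 0.461 and 0.421. With the other un-wounded library the values were −0.461 and −0.421. The deviations of only 2 un-wounded libraries mirror each other, so these correlations cannot show a pairing. The block gave 139 calls in basal and 679 in mural cells.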
